A study of Mus musculus with 2 samples.

Results

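Input-enriched bins lacking CtBP2 signal are 1 kb bins of the MIN6 genome in which sheared chromatin gave many reads and the CtBP2 precipitate gave few. MIN6 is a mouse insulinoma line that stands in for the insulin-producing beta cells of the pancreas. The data were 1 ChIP library, precipitated from formaldehyde-fixed cells by an anti-CtBP2 antibody, and 1 library of the input chromatin without precipitation, both from MIN6 cells in regular culture. The files hold no expression values, so the line was not checked against marker genes. The members were chosen by read counts: at least 20 input reads and at most 5 ChIP reads per bin, with 1 read kept per chromosome, 5 prime end and strand in each library. Of the 2638740 bins on chromosomes 1 to 19 and X, 29457 were members (1.12%). Joining adjacent members gave 24776 regions. Bins inside 26 windows of 10 kb with 4200 or more deposited input reads were left out beforehand.

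The ChIP library held 34890624 deposited reads and the input library 20896067, with a median read length of 36 bp. On the chromosomes used, 8465978 distinct ChIP reads and 12441172 distinct input reads remained, or 4.12 and 1.67 deposited reads per distinct position. With 1 library per group there is no replicate check. Intervals are 95% intervals for counting error only, and differences between classes of bins describe these libraries. Positions are 1-based on mouse build mm9. Regions are given by coordinates alone: their sequence and their overlap with genes, promoters and repeats were not analysed here.

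CtBP2 is a transcriptional co-repressor without a DNA-binding domain for a specific site of its own. It binds NAD(H) and is brought to DNA by partner proteins, through which it recruits enzymes that modify histones. An input library serves as the control of a ChIP experiment because its depth is not the same everywhere. It follows the number of DNA copies in the cells, how readily fixed chromatin is sheared, and how reads from repeated sequence are placed by the aligner. A place with raised input and no raised ChIP is therefore one where ChIP depth would be judged against a high control.

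The members held few ChIP reads, but ChIP was not absent from them. A member held a median of 22 input reads (mean 22.7 ± 3.30 SD over bins, highest 129) and a median of 2 ChIP reads (mean 2.29 ± 1.43 SD). Over all bins the medians were 3 input and 1 ChIP read, and bins with fewer than 20 ChIP reads had a mean of 1.14 ChIP reads. In 3285 members (11.2%) no ChIP read was found, which allows up to 3 reads in each. Members held 5.42% of the input reads and 0.807% of the ChIP reads of the bins used. Their ratio was 0.101 ChIP reads per input read (0.1002 to 0.1017), against 0.272 in bins with fewer than 20 ChIP reads and 0.678 in all bins. These are the values that chose the members and are given as a description. The name of the class thus stands for ChIP depth far below that of input. The mean ChIP count of members was above that of bins with fewer than 20 ChIP reads and below the 3.17 of all bins.

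Bins with dense input fell into a large group with few ChIP reads and a long tail with many. At least 20 input reads were found in 2.42% of all bins and at most 5 ChIP reads in 97% of them. Of the 63972 bins with at least 20 input reads, 46% had at most 5 ChIP reads and are the members. Another 7700 had 6 to 19 ChIP reads and 26815 had 20 or more. The commonest value was 2 ChIP reads, found in 7567 bins, and the number of bins then fell without a gap across the limit, from 2379 at 5 reads to 1446 at 6. At the input limit, 7258 members had exactly 20 input reads and 9157 bins with at most 5 ChIP reads had 19. Most members lay near that limit: 23553 (79.96%) had 20 to 24 input reads, 1061 (3.602%) had 30 or more and 23 had 50 or more. The bins with 20 or more ChIP reads were also richer in input, with a median of 41 input and 113 ChIP reads.

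**Figure D1:**
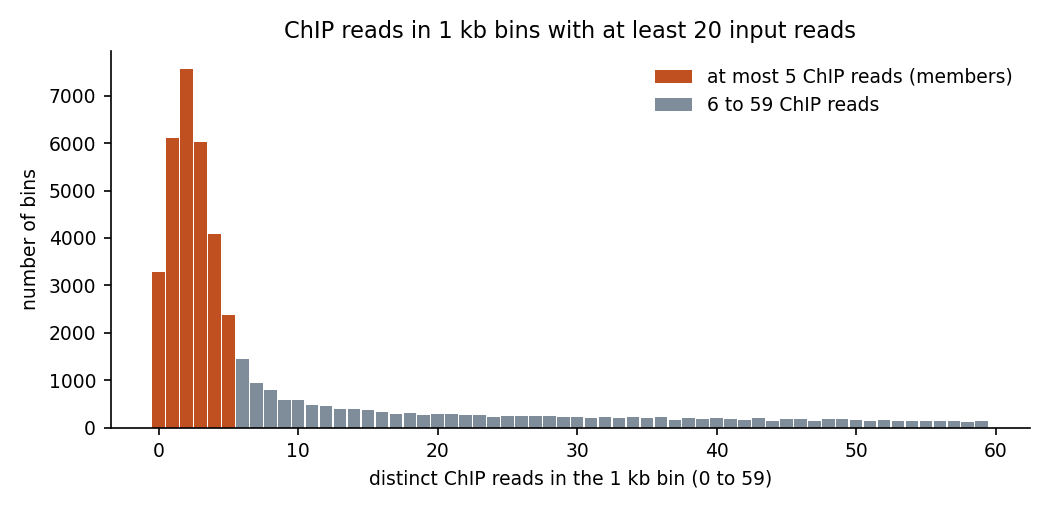
Number of 1 kb bins with at least 20 input reads (vertical axis) by their number of distinct ChIP reads (horizontal axis), with members in orange and the 18908 bins with 60 or more ChIP reads not drawn. The members form the peak at 2 ChIP reads, and the count declines smoothly past the limit of 5.

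Reads that took no part in the choice also showed raised input. Their ChIP rose less against bins with fewer than 20 ChIP reads and was below the mean of all bins. Bins were chosen on plus strand reads alone, with at least 10 input and at most 2 ChIP reads, and minus strand reads were then counted in the 42687 bins found. They held 8.11 minus strand input reads per bin (8.08 to 8.14), 3.87 times the 2.09 of bins with fewer than 20 ChIP reads. Minus strand ChIP reads numbered 1.35 per bin (1.33 to 1.36), 2.36 times the 0.570 of those bins. The mean over all bins was higher, at 1.59 minus strand ChIP reads. The bins with fewer than 20 ChIP reads are limited in ChIP on both strands, and the chosen bins on the plus strand only. The ratio of minus strand ChIP to input reads was 0.166 (0.165 to 0.167), against 0.272 in bins with fewer than 20 ChIP reads and 0.678 in all bins. On the minus strand 31.7% of the chosen bins reached 10 input reads, against 2.11% of bins with fewer than 20 ChIP reads. The plus strand mean, which chose the bins, was 11.6. Both strands of a fragment share its source, so minus strand reads are not a separate sample. Of the members themselves, 19507 (66.2%) were among the bins chosen on the plus strand. They made up 45.7% of the 42687 chosen bins, so the minus strand values describe a wider set than the members.

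Member input was balanced between strands. The plus strand held 49.9% of member input reads (49.78 to 50.02) and 50.3% of member ChIP reads. In 2.79% of members the plus strand share was 25% or less or 75% or more, against 7.69% of input-enriched bins with at least 20 ChIP reads.

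Members were mostly parts of wider raised stretches rather than narrow peaks. With other members left out, the bins next to a member held a mean of 12.9 input reads and a median of 13, and those 2 kb away a mean of 10.6. The mean fell to 7.39 at 4 kb and 5.33 at 6 kb and was 5.14 at 10 kb. The median reached the genome-wide 3 at 6 kb. Beside input-enriched bins with at least 20 ChIP reads, with bins of that class left out, input was already down to 8.50 at 1 kb and 6.43 at 2 kb. Per joined region, input over the flanks from 1 to 5 kb was 7.87 reads per kb, and from 20 to 100 kb it was 5.0, close to the 4.68 of all bins. ChIP beside members had a median of 2 at 1 kb and 1 from 3 kb on, while its mean was 5.11 at 1 kb and 2.89 at 10 kb. These means are above the members' own 2.29, which the rule held down.

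**Figure D2:**
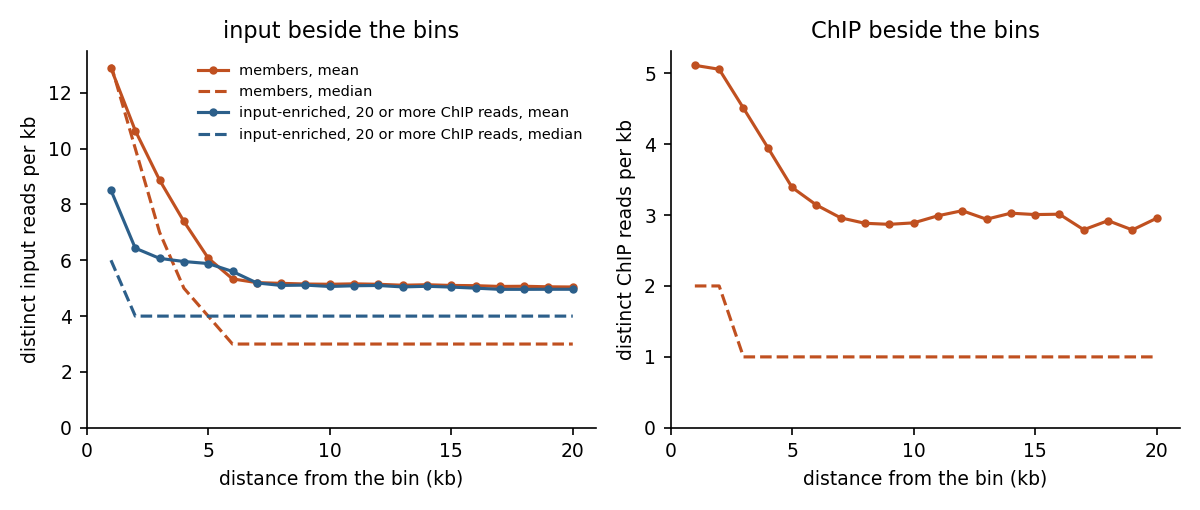
Distinct input reads (left) and ChIP reads (right) per kb, as mean (points) and median (dashed), by distance in kb from members (orange) and, for input, from input-enriched bins with at least 20 ChIP reads (blue), with bins of the same class left out. Input beside members declines over about 6 kb, from a mean of 12.9 to 5.33, and beside the other class it is at 6.43 by 2 kb.

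Joined regions of members were short. Of the joined regions 20996 (84.7%) were a single bin, 3052 were 2 kb wide, and 728 were 3 kb or wider. To follow the rise beyond the limit of 20 reads, consecutive bins with at least 10 input reads were joined into stretches of raised input, whatever their ChIP count. This limit was chosen after the values were seen. There were 155638 such stretches, and 20781 of them held at least 1 member.

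The stretches had a second preferred width of about 6 kb. Over all stretches, with or without a member, the number fell from 98005 at 1 kb to 4369 at 5 kb, rose to 5235 at 6 kb, and then fell to 3810 at 7 kb and 1037 at 8 kb. Stretches of 5 to 8 kb held 16362 members, 55.5% (55.0 to 56.1), although they held 29.02% of all bins in stretches. They held 16.6% of the input-enriched bins with at least 20 ChIP reads, of which 63.8% lay in stretches of 2 to 4 kb. Only 10.6% of members stood alone in a 1 kb stretch, and 8.37% lay in stretches of 9 kb or more. A member was present in 3.17% of 1 kb stretches and in 72.4% of 6 kb stretches. A wider stretch has more bins that can reach the limit, so this rise is in part built in. The increase in number from 5 to 6 kb does not use members. It was also found with raised input set at 8 reads (4865 and 5782 stretches), but not at 12 reads (3972 and 3783).

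**Figure D3:**
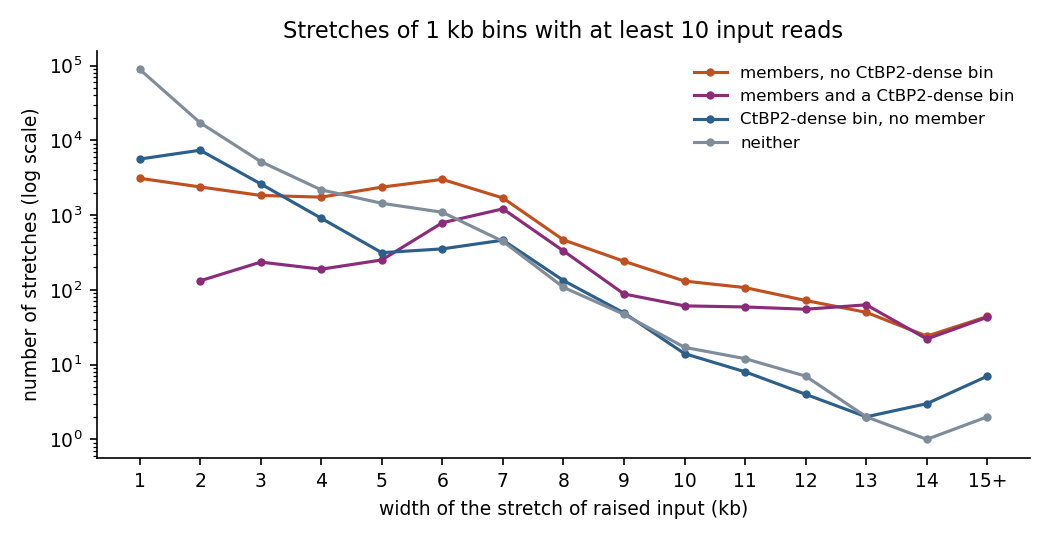
Number of stretches of raised input (log scale) by width in kb, for stretches with members and no CtBP2-dense bin, with both, with a CtBP2-dense bin only, and with neither. Stretches with members rise again at 6 kb (3002 without and 790 with a CtBP2-dense bin) and those with both peak at 7 kb (1211).

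Within such stretches members were an inner part of an even block. In the 3002 stretches of 6 kb with members and no CtBP2-dense bin, mean input was 16.1 reads in the bins at the ends, 17.8 in the second bins and 17.7 in the middle pair. Of the end bins 16.6% were members, against 33.7% and 33.5% of the inner bins. Mean ChIP in those stretches went the other way, from 3.13 reads at the ends to 2.33 in the middle. Members, whose ChIP the rule held down, were a larger share of the inner bins, so this difference is in part built in. End bins can reach past the raised sequence, because bins start at fixed positions.

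A minority of members shared their stretch with a CtBP2-dense bin, defined as at least 20 ChIP reads. Its place was examined in stretches of 5 to 8 kb. There were 3530 such stretches with 5419 members (18.4%). Of the 2583 that were 5 to 8 kb wide, 2377 (92.0%, 90.9 to 93.0) had their dense bins only among the 2 bins at 1 end, 14 at both ends and 192 further in. The dense end was the left one by coordinate in 1205 and the right one in 1172. Either end counts, and most stretches (1839) had a single dense bin, so a high share is in part built in. Each stretch also held a member, which cannot be dense, so the shares of bins below are not a chance level. The 2 bins at either end make up 80% of the bins of a 5 kb stretch, 66.7% at 6 kb, 57.1% at 7 kb and 50% at 8 kb. The share with dense bins at 1 end was 80.9% of 251 stretches at 5 kb, no more than that share of bins, 95.1% (93.3 to 96.4) of 790 at 6 kb, 97.0% (95.9 to 97.8) of 1211 at 7 kb and 74.9% of 331 at 8 kb. A single dense bin was the very first or last bin in 82.1% of 173 stretches at 5 kb, 94.96% of 695 at 6 kb, 88.2% of 814 at 7 kb and 42.7% of 157 at 8 kb, where end bins make up 40%, 33.3%, 28.6% and 25% of bins. In stretches with dense bins and no member, the share with dense bins at 1 end was 90.04% (87.0 to 92.5) of 462 at 7 kb and 74.2% (69.4 to 78.5) of 353 at 6 kb, so such a place was also found without members. Stretches without a member had more dense bins each, 1.71 against 1.15 at 6 kb. They also had no bin that the member rule kept from being dense. The part of either in the difference was not tested.

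Aligned at the dense end, these stretches had a ChIP peak over a block of input, a shape that their selection in part fixed. In the 1175 stretches of 7 kb, ChIP was 1.26 reads per kb at 250 to 500 bp before the end. It was 3.83 in the last 250 bp before the end and 75.4 at 750 to 1000 bp inside, and had fallen to 4.74 by 1750 to 2000 bp. Over the middle of the stretch it was 2.54 reads per kb, and in the last 1 kb at the far end 2.02. Input rose at the same place to 32.0 reads per kb, then ran at 18.0 over the middle and 14.01 in the last 1 kb, and was 4.01 past the far end. In the 751 stretches of 6 kb, ChIP was 12.9 reads per kb in the last 250 bp before the end. Its peak was 63.5 reads per kb at 250 to 500 bp inside, with 2.53 over the middle. Input there was 27.2 at the same place and 17.9 over the middle. The dense bin was chosen for ChIP, so the height of its peak is a description. Stretches were joined by their input reads, so the block of input and its drop outside are built in. Only stretches with all dense bins at 1 end were aligned, and each held a member. The absence of dense ChIP over the middle and at the far end is therefore also built in. The mean ChIP values there describe how far below the dense limit these bins lay. The input profile was not used to set the direction. ChIP at the far end stayed near the mean of 2.29 that members had.

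**Figure D4:**
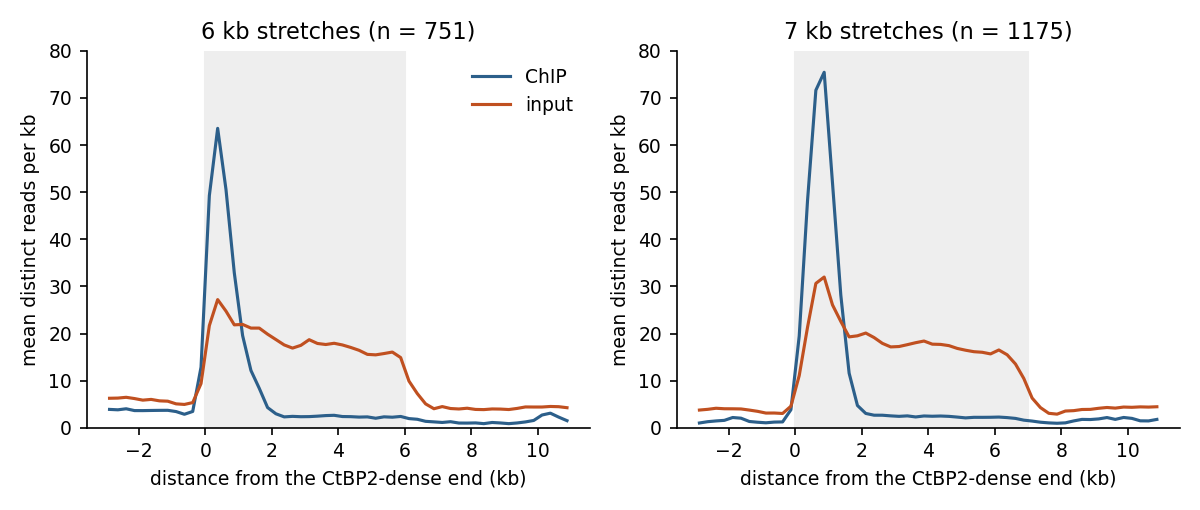
Mean distinct ChIP (blue) and input (orange) reads per kb in steps of 250 bp, by distance in kb from the CtBP2-dense end, for 6 kb (left, n = 751) and 7 kb stretches (right, n = 1175) that hold members, with the stretch shaded. ChIP peaks inside 1 end at 63.5 and 75.4, while input runs on at 17.9 and 18.0 over the middle. The choice of the stretches in part fixes this shape.

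Repeated reads were fewer in members than in other bins with as few ChIP reads. In bins with at most 5 ChIP reads, the number of deposited ChIP reads per distinct position fell with input level up to 29 input reads. It was 1.72 in bins with no input read, 1.68 with 1 to 4, 1.56 with 5 to 9, 1.33 with 10 to 14, 1.18 with 15 to 19 and 1.15 in members with 20 to 29. The 1061 members with 30 or more input reads were an exception at 1.37. The order was the same at an equal ChIP count: bins with 2 ChIP reads had 1.72 deposited reads per position at 1 to 4 input reads and 1.14 at 20 to 29. In bins with at least 20 ChIP reads the value instead rose with input, from 1.81 at 1 to 4 input reads to 1.99 at 20 to 29. Input reads showed a smaller change of the same kind, from 1.13 at 1 to 4 input reads to 1.04 in members with 20 to 29. Repeated reads were not used by the rule. The aligner's handling of reads that match more than 1 place is unknown here, and its part in these values was not tested. Within the 7 kb stretches aligned at their dense end, ChIP had 1.66 deposited reads per position at 250 to 500 bp before the stretch, 1.13 at the peak and 1.02 at 3500 to 3750 bp inside. In the 6 kb stretches the value was 1.13 at the peak and 1.04 at 3500 to 3750 bp inside, but 3.997 at 250 to 500 bp before the stretch and 24.1 over the 1 to 3 kb before it. A single stretch, next to a window left out for its depth, gave 97.95% of those outer reads, and without it the value was 1.63. The peaks thus had fewer repeated reads than the 1.99 of bins with at least 20 ChIP reads and 20 to 29 input reads. All input-enriched bins with at least 20 ChIP reads had 2.62, but their mean of 190 ChIP reads was far above the depth of these peaks. The part of depth in these differences was not tested.

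**Figure D5:**
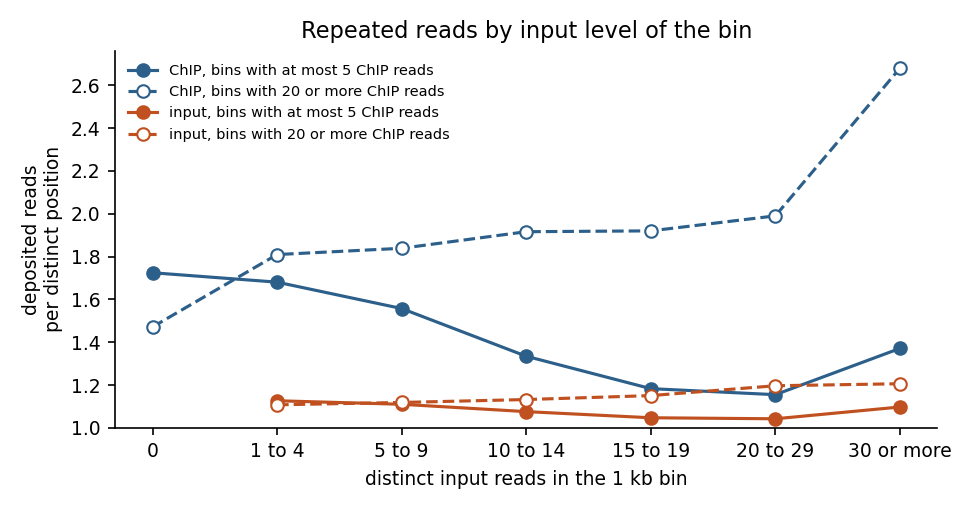
Deposited reads per distinct position (vertical axis, from 1) by distinct input reads of the 1 kb bin, for ChIP (blue) and input (orange), in bins with at most 5 ChIP reads (filled) and with at least 20 (open). ChIP falls from 1.72 to 1.15 along the filled line up to its last point, which turns up to 1.37 in the members with the most input reads. Along the open line ChIP rises, and the open point at 0 input reads rests on 4 bins.

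Members were found on every chromosome used and were densest on X when counted per Mb of bins with input reads. Bins without input reads are left out of this base, and the order over all bins was not worked out. Per Mb of bins with input reads there were 15.6 members on chromosome X (14.96 to 16.3), 14.8 on chromosome 3 (14.1 to 15.4) and 14.4 on chromosome 4 (13.8 to 15.1), whose intervals overlapped. Chromosome 19 had the fewest at 9.01 (8.22 to 9.86), and chromosome 11 followed at 9.69 (9.11 to 10.3), again with overlapping intervals. The autosomal median was 13.0. The order was partly the reverse for input-enriched bins with at least 20 ChIP reads, of which X had 6.10 per Mb and chromosome 11 had 19.3. Across the 20 chromosomes these densities had a Pearson correlation of -0.49 and a Spearman's rho of -0.32, and across the 19 autosomes -0.38 and -0.21. The chromosomes share both libraries, and both classes require dense input. Mean input on X, over bins with and without input reads, was 4.0 reads per kb, the lowest of the chromosomes used. The densities leave out bins without input reads, so this mean and the densities have different bases.

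Along chromosomes members were spread widely. A 1 Mb window held a median of 10 members, and 33 of 2560 windows held none. The 26 windows with the most held 3.64% of all members. The first was 114 to 115 Mb of chromosome 6 with 56 members, and on chromosome 5 the neighbouring windows at 94 and 95 Mb held 52 and 48. The window at 19 Mb of chromosome 8 held 50. Both windows of chromosome 5 had a median input of 6 reads per kb, so that input was raised across them, whereas that of chromosome 6 had the usual median of 3. Mean input in the 26 windows had a median of 6.61 reads per kb, against 4.68 over all windows. Members themselves add to these means.

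Members were more often within 10 kb of a CtBP2-dense bin than bins in general were. Of the joined regions, 27.0% (26.5 to 27.6) were within 10 kb of a CtBP2-dense bin, against 15.2% of all bins with input reads and fewer than 20 ChIP reads. The median distance was 43 kb against 52 kb, and the shares within 100 kb were close, at 71.2% and 69.7%. The bin next door was dense for 7.51% of joined regions and 1.85% of bins. Input-enriched bins with 6 to 19 ChIP reads were closer than members, with 40% (38.9 to 41.1) within 10 kb. A joined region can be wider than a bin and so has slightly more room to be near, and member bins taken singly gave 26.6%. With dense bins defined by at least 50 ChIP reads the shares within 10 kb were 15.9% and 10.7%, while the order of the median distances turned, to 88 kb for joined regions and 81 kb for bins in general.

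By input reads summed over their bins, the first joined regions were blocks of several kb and 1 narrow exception. Such a sum favours wide regions, so the width of these blocks is in part built in. The first was chr12:8637001-8643000, with 248 input reads (218 to 281) and 18 ChIP reads (10.7 to 28.4). Its 6 bins held 33, 68, 44, 43, 39 and 21 input reads beside 4, 3, 3, 3, 2 and 3 ChIP reads, so that input ranged from 21 to 68 reads while ChIP stayed between 2 and 4. The median of the bins within about 50 kb on each side was 3 input and 2 ChIP reads, and this region was thus a local rise above that median. The mean of those bins was 6.92 input reads. A local rise was also found at chr10:49749001-49755000, where a stretch of exactly 6 kb was made of members alone. Its bins held 25, 21, 25, 20, 21 and 22 input reads and 4, 1, 1, 5, 2 and 1 ChIP reads, in surroundings with a median of 3 input reads. The widest region, chr8:20030001-20037000, ran over 7 bins with 24 to 43 input reads and 0 to 5 ChIP reads. Its surroundings had a median of 2 input reads but a mean of 7.84, above the 4.68 of all bins, so input was raised in parts of them too.

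Other regions stood in surroundings where the median input was raised as well. Both chrX:92163001-92169000, with 211 input and 19 ChIP reads, and chrX:92118001-92123000, with 151 and 17, belonged to a single stretch of 62 kb at chrX:92117001-92179000. That stretch held 25 members, more than any other, and averaged 38.5 input and 5.92 ChIP reads per kb with no CtBP2-dense bin. The region at chr8:74356001-74362000 held 158 input and 18 ChIP reads in surroundings with a median of 6 input reads. The region at chr6:142016001-142021000 (124 input, 13 ChIP reads) shared a 15 kb stretch with 2 CtBP2-dense bins. Shorter local blocks were found at chr2:129262001-129266000, with 130 input and 10 ChIP reads over 4 bins, and at chr1:103907001-103912000, with 125 and 13 over 5 bins.

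The exception was a single bin at chr5:60434001-60435000, with the highest input of any member. It held 129 input reads (108 to 153) and 3 ChIP reads (0.619 to 8.77), and its surroundings had a median of 3.5 input reads. Only 35.7% of its input reads were on the plus strand, and it had 1.67 deposited input reads per position, above the 1.05 of all members. Among regions with no ChIP read, the most input was found at chr3:142507001-142510000, with 23, 26 and 22 input reads in its 3 bins. It was followed by chr11:104672001-104675000 with 28, 21 and 21, chr5:94690001-94693000 with 20 in each bin and chr5:111653001-111655000 with 30 and 26. A single bin at chr6:145968001-145969000 held 55 input reads and no ChIP read, in surroundings whose median was 0 input and 0 ChIP reads. For each of these regions a count of 0 allows up to 3 ChIP reads as a limit on 1 side, and 3.69 as the upper bound of the exact interval used for the other counts. There were 2559 joined regions with no ChIP read in all.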

How the data were processed

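The authors deposited aligned reads as 1 line per read with chromosome, start, end and strand. The count column of the deposited files is 1 on every line, so sums are raw read counts, and the deposited score is 0 on every line, so no mapping quality is held. Read positions are the other deposited unit, in bp. Per the submitters' processing notes, BWA, SAMtools 0.1.19, bedtools 2.17.0 and build mm9 were used, and settings, filters and the placement of reads with several matches are not given in the sources used here.

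Reads were binned by 5 prime end in 1 kb bins from position 0 with Python 3.11.15, NumPy 2.4.6, pandas 2.3.3 and SciPy 1.17.1, and figures drawn with matplotlib 3.10.9. The scripts were tested on simulated data. Intervals are exact Poisson for read counts and numbers of bins and Wilson for shares, at 95%, and cover counting error only, since amplified reads are not independent molecules. No test was made between libraries, since each group has 1. The members, limits and lists were chosen with earlier results of these data known. Regions described singly are the 10 joined regions with the most input reads, the 5 widest, and the 5 with the most input reads among those with 0 ChIP reads. Stretches of raised input (at least 10 reads per bin), the class of 5 to 8 kb and the alignment at the dense end were chosen after the values were seen. Alternatives were other limits, bin starts, read placement, read selection and flanks. Gene lists and base composition, planned for use with a genome of build mm9, were not run, and the gene and promoter tables of another build were not used.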

Additional observations from a re-analysis of the deposited data

Results flagged for a closer look

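Outside the chromosomes of the rule, 52 of 2873 bins of chromosome Y met both limits, among 201 with at least 20 input reads. Chromosome Y was not part of the comparisons above, and its bins held 24195 distinct input and 7190 distinct ChIP reads, or 0.297 ChIP reads per input read. With 1 ChIP and 1 input library no outlier among replicates could be sought.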

How the results depend on the processing

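No paired analysis was possible because the libraries have no replicates. The number of member bins, 29457, stayed within 1.5 times with all deposited reads, bins starting 500 bp later, 5 prime ends moved by 100 bp, a ChIP limit of 10, no windows left out and the plus strand choice. It was 97743 at an input limit of 15, 1061 at 30, and 16968 at a ChIP limit of 2, as limits set numbers by construction. With later bin starts, 65.7% of members overlapped a bin of that choice. Minus strand ChIP per input rose from 0.166 to 0.185, and minus strand input from 8.11 to 10.2 per bin, when 15 plus strand input reads were asked. Deposited reads per position in members with 30 or more input reads were 1.10 for input (1.05 in all members) and 1.37 for ChIP (1.16), and 1.15 for ChIP in members with 2 ChIP reads. Flank input was 5.15 reads per kb at 5 to 20 kb, and 15.9% of joined regions were within 10 kb of a bin with at least 50 ChIP reads. X over the autosomal median, per Mb of bins with input reads, was 1.20 for member bins and 1.25 for joined regions. The share of members in stretches of 5 to 8 kb, 55.5%, became 59.4% and 45.6% with raised input set at 8 and 12 reads, 56.3% with all deposited reads and 51.6% without stretches that held a CtBP2-dense bin. These alternatives for stretches were chosen after seeing the data. The cause of these changes was not tested. The share with dense bins at 1 end stayed between 90.7% (8 reads) and 93.0%. Overlap with genes and base composition were not run. At this depth a member holds about 22 input and 2 ChIP reads, so single bins near the limits are uncertain.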

Other observations

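Input was spread more evenly inside members than in input-enriched bins with at least 20 ChIP reads: the 200 bp stretch with the most reads held a median of 38.1% of a member's input reads, against 44.4% in the other class, whose bins held more reads. After the 62 kb stretch of chromosome X, the stretches with the most members were chr14:52103001-52130000 with 11, chr8:19755001-19776000 with 10 and chrX:120159001-120191000 with 9. Their input averaged 20.9, 21.8 and 21.4 reads per kb and their ChIP 3.70, 4.29 and 5.22. Among the left-out windows of 10 kb, 5 of 260 bins met both limits.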
